A study of Mus musculus with 11 samples.

Results

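Ch25h and 7 genes of sterol synthesis and its control (Hmgcs1, Sqle, Idi1, Insig1, Srebf2, Fdps and Cyp51) were followed across the cell types of the mouse cerebral cortex, at 3 ages and in experimental autoimmune encephalomyelitis (EAE), a model of autoimmune inflammation of the central nervous system. The 8 genes were picked by name from the 26921 genes in the count files, and all 8 were found in each of the 11 libraries. Cells came from dissected cortex of C57BL/6 mice, dissociated with papain and Liberase TM and depleted of myelin with a bovine serum albumin spin, and were profiled by droplet single-cell RNA-seq (10x Genomics 3′ chemistry, v2). There were 4 juvenile libraries (postnatal day 10), 3 adult libraries (7–11 weeks), 2 aged libraries (18 months) and 2 EAE libraries. The EAE mice were females of 7–11 weeks given MOG35–55 peptide in complete Freund's adjuvant, with pertussis toxin at immunization and on day 2, and were taken at the disease peak. For the other mice the study's methods name females as the default, and the labels give no sex. Juvenile 3 and Juvenile 4 nevertheless held RNA of the Y-linked gene Ddx3y (63.4 and 64.2 CPM over all barcodes, where CPM is UMIs of the gene per 1000000 UMIs), which was at 0 in the other 9 libraries. Juvenile results are therefore also given without these libraries where that changed a call, an alternative added after the data were seen. Each juvenile and adult library pooled 6 mice, and each aged and EAE library pooled 3, so a library averages over animals. The adult mice were not given adjuvant or toxin, so the disease cannot be told apart from its induction.

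Cholesterol is built from acetyl-CoA through the mevalonate pathway and then through squalene and a series of sterols. Cells tune it by a feedback loop: when membrane sterol is low, SREBP2, the product of Srebf2, travels with SCAP from the endoplasmic reticulum to the Golgi, is cut, and switches on the enzymes of synthesis, whereas INSIG1 holds the complex back when sterol is plentiful. Oxysterols strengthen that block and are also ligands of the LXR receptors, which turn on the cholesterol exporters Abca1 and Abcg1. Ch25h encodes cholesterol 25-hydroxylase, which makes 25-hydroxycholesterol, is known as an interferon- and inflammation-induced gene, and feeds Cyp7b1, whose product is the ligand of the lymphocyte receptor Gpr183. In the brain, cholesterol is made locally, mostly by glia, since the blood-brain barrier keeps lipoproteins out.

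Of 54646 barcodes, 50625 passed the filters (over 500 and under 6000 genes, under 25% mitochondrial UMIs). A UMI, or unique molecular identifier, marks 1 captured RNA molecule. Libraries held 15755504 to 34326349 UMIs, and the median per kept cell ran from 2420 (Aged 1) to 4199.5 (Juvenile 3). Cells were clustered without the 8 genes and the other genes of the lists used below, apart from Darc and Sc4mol, which the files give under older symbols. The clusters were named from marker genes: endothelial-like cells (ECs, 21112), microglia-like cells (microglia, 8793), choroid plexus-like epithelial cells (6686), perivascular macrophage-like cells (PVMs, 2015), monocyte- and dendritic cell-like cells (2487), mural-like cells (1503), astrocyte-like cells (1400) and oligodendrocyte lineage-like cells (257). The labels give the tissue as cortex, so the choroid plexus cells came with the dissection. All 8 EC markers were detected in the ECs of each library. Pairs of libraries shared at most 1.531% of the barcodes of the smaller one. Adult 1 stood apart from the other adult libraries. In ECs, 31.1% and 31.4% of genes differed from Adult 2 and Adult 3 at p under 0.05 in a chi-square test over cells, against 6.80% between Adult 2 and Adult 3. The summed level of 6 choroid plexus markers in ECs was 50263 CPM in Adult 1, 20761 and 20134 in the other adults and 7548 and 7555 in EAE. Adult 2 and Adult 3 had a chi-square per degree of freedom of 1.38 in ECs, or 1.20 over cells, which is still above sampling noise. They were summed and counted once, so the adult group has n = 2 in each test, except in fits said to enter them separately. Juvenile 1 with 2 (1.14 over cells, 6.29% of genes) and Juvenile 3 with 4 (6.44%) were as close but were kept separate, and were summed in an alternative. EAE 1 with 2 (1.47 over cells, 7.70% of genes) and Aged 1 with 2 (1.62, 8.38%) were also far closer than the pairs with Adult 1, and each was kept as 2 units, since summing would leave no replicate. Entering Adult 2 and 3 separately left the same members called in ECs in EAE, and results that rest on Adult 1 are given without it.

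All levels below are CPM of the gene in 1 cell type of 1 library, and all log2 fold changes are from edgeR's quasi-likelihood test on UMIs summed by library and cell type, with the standard error and the Benjamini-Hochberg adjusted p over all genes tested. A gene is called at an adjusted p under 0.05. Where groups are said not to overlap, this describes the values printed. The share of all genes without overlap is not given here, so nothing is read from how many genes showed it. Where leaving out a library left the adult or EAE group with 1 unit, the spread came from the other groups and that unit was assumed to vary like them. The 3′ tags give levels that can be compared between samples, not between genes. Ch25h lies on chromosome 19 (34473778–34475164, minus strand, GRCm38) and is a single exon. Hmgcs1 and Idi1 lie on chromosome 13, Sqle and Srebf2 on chromosome 15, Insig1 and Cyp51 on chromosome 5 and Fdps on chromosome 3. Exons of Ch25h, Hmgcs1, Idi1 and Cyp51 overlap a gene on the opposite strand. For Cyp51 the partner is the protein-coding gene Akap9, 165 bases from the 3′ end of Cyp51. Whether the counting used strand is not given in the sources used here, so reads of these partners may not have been told apart. Exons of Fdps overlap the protein-coding gene Gm43738 on the same strand, an overlap that counting by strand would not resolve. The nearest edge of Gm43738 lies 7511 bases from the 3′ end of Fdps.

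Ch25h rose in ECs in EAE. Its level was 246 CPM in EAE 1 and 247 CPM in EAE 2, from 2734 and 2685 UMIs. The adult libraries held 9.30, 30.2 and 35.9 CPM (34, 228 and 271 UMIs). The 2 EAE libraries lay far above the 3 adult ones, with no overlap, and Adult 1 was the lowest of the adults. The log2 fold change against adult was 3.54 ± 0.38 (adjusted p = 0.00038, edgeR), and it stayed between 3.08 and 4.93 and called in each of 12 alternatives. Of the 8 genes tested in ECs, 4 were called in EAE, 1 higher and 3 lower, where 28.1% of all genes tested were called.

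By age, Ch25h was at the edge of detection in juvenile ECs. The 4 juvenile libraries gave 1.58, 0.991, 1.54 and 1.62 CPM, from 5 to 11 UMIs each, all below the lowest adult value. Against adult the log2 fold change was -3.97 ± 0.50 (adjusted p = 0.00039, edgeR). In aged ECs the level was 37.8 and 36.4 CPM, close to Adult 2 and Adult 3. The aged difference was 0.62 ± 0.38 (adjusted p = 0.37) and was not called, although without Adult 2 and 3, that is against Adult 1 alone, which stands apart and gives no spread of its own, it was 2.02 (adjusted p = 0.00014).

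Seen cell by cell, the gene was found in more ECs in EAE. Each cell was thinned to 1500 UMIs, since deeper cells show more genes. A Ch25h UMI was then present in 18.6% of 3165 ECs in EAE 1 (95% exact binomial interval 17.3–20.01) and 19.1% of 3066 in EAE 2 (17.8–20.6). In the adult libraries the share was 0.759% (6 of 791 cells), 2.22% and 2.29%. In the aged libraries it was 3.03% and 3.04%. The EAE shares were well above those of the healthy mice at each age. Juvenile shares were 0.368%, 0.194% and 0.198%, and in Juvenile 2 none of 509 cells had a UMI, which allows a share of up to 0.589% as 3 cells of 509, or 0.722% by the exact interval. Intervals and limits cover counting error only. The EAE minus adult difference was 17.4 percentage points (2 EAE against 2 adult units, exact permutation test, two-sided p = 0.333, the smallest this design allows). Without thinning the EAE shares were 26.9% and 27.1%.

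Free RNA in the droplets can put UMIs of a gene into cells that do not make it, and its amount was not measured here. In EAE, at the same 1500 UMIs, the share of cells with a Ch25h UMI was 1.01% and 1.59% of T cell-like cells and 0.242% and 0.855% of choroid plexus cells. Monocyte- and dendritic cell-like cells had 2.16% and 1.36%. Microglia had 1.34% and 1.46%, above choroid plexus cells in both libraries and within the 0.242% to 2.16% spanned by the 3 types. Whether those 3 types make Ch25h was not tested, so the microglial share was read neither as expression nor as its absence. PVMs had 5.69% and 4.59%, against 0.581% and 3.64% in Adult 1 and 2 and 8 of 174 cells in Adult 3, which was not below the share in EAE 2. ECs held the highest share among the cell types compared, in both EAE libraries.

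**Figure D1:**
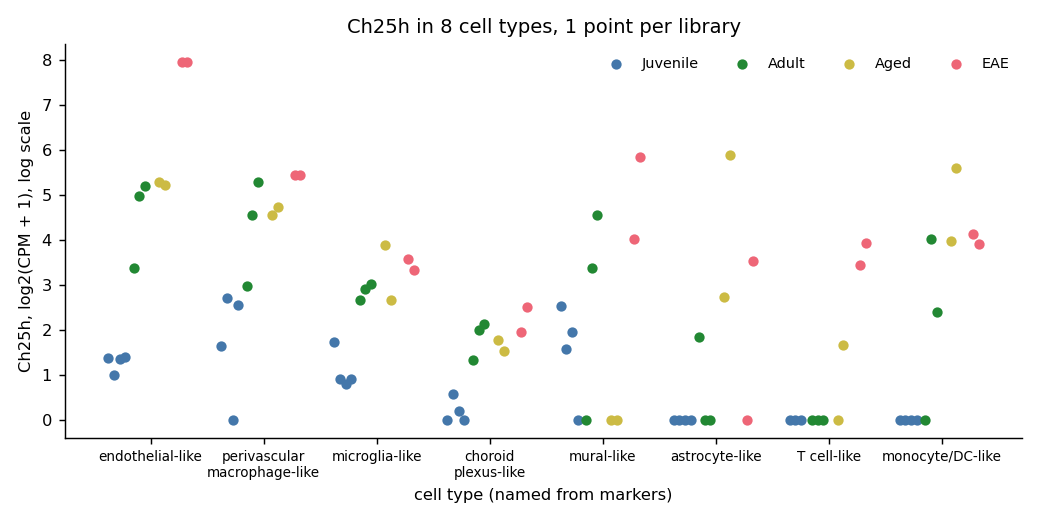
Level of Ch25h as log2(CPM + 1) in 8 cell types, 1 point per library and coloured by group. The 2 EAE libraries stand at 246 and 247 CPM in ECs and at 42.6 and 42.1 CPM in PVMs, and juvenile libraries are lowest in ECs.

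In PVMs, the macrophages that line the vessels, Ch25h was called higher in EAE, but the call rests on Adult 1. It was measured at 42.6 and 42.1 CPM in EAE (45 UMIs each) and at 6.85, 22.5 and 37.8 CPM in adults (6, 14 and 24 UMIs). The groups did not overlap, but Adult 3 lay close to both EAE libraries. The log2 fold change was 1.22 ± 0.39 (adjusted p = 0.037, edgeR), and without Adult 1 it was 0.65 (adjusted p = 0.19). Without EAE 1 or EAE 2 it was 1.25, with an adjusted p of 0.15 in both cases, and DESeq2 did not call it (1.31, adjusted p = 0.17). If every EC marker UMI in PVMs had been carried over from ECs, 12.7 and 13.9 of the EAE CPM would have come with them, a reckoning added after the data were seen. That would leave 29.96 and 28.2 CPM in EAE and 6.28, 20.1 and 35.4 CPM in adults, so the groups would overlap. Such remainders, here and below, were not rescaled to the UMIs left. In juvenile PVMs Ch25h was at 2.10, 5.53, 0 and 4.88 CPM, from at most 3 UMIs, and the log2 fold change against adult was -2.69 ± 0.64 (adjusted p = 0.0098). Without Adult 2 and 3 that was -1.17 (adjusted p = 0.43). The summed level of 8 EC markers in PVMs was 1557 to 2292 CPM in adults and 327 to 623 CPM in juveniles.

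Microglia had 10.9 and 9.01 CPM in EAE and 5.34, 6.48 and 7.04 CPM in adults, a difference of 0.91 on the log2 scale that was not called (adjusted p = 0.17). Carry-over from ECs could make up 5.70 and 5.37 of the EAE values on the same reckoning. Choroid plexus cells had 2.84 and 4.72 CPM in EAE and 1.53 to 3.39 CPM in adults (log2 fold change 0.58, adjusted p = 0.37). Mural cells had 15.1 and 56.4 CPM of Ch25h in EAE (4 and 15 UMIs) and 0, 9.40 and 22.6 CPM in adults, so the groups overlapped. Fibroblast-like cells, 20 and 18 in EAE, held 7 and 1 Ch25h UMIs there and 0 in each adult library. In these types, as in astrocyte-like and monocyte- and dendritic cell-like cells, Ch25h was under the filter on low counts and was not tested. Oligodendrocyte-lineage cells gave no Ch25h UMI in the 7 libraries with at least 10 of them, which leaves out both EAE libraries. In astrocyte-like cells 1 library stood out: Aged 2 reached 57.9 CPM (22 UMIs), but at 1500 UMIs per cell only 1 of 97 cells held the gene.

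The EAE response of Ch25h was compared between cell types in 1 model with an interaction term. Since cell types come from the same libraries, the library was also fitted as a block, which is the paired form of the test. The fit with the block entered Adult 2 and Adult 3 as separate libraries. The response in ECs exceeded that in PVMs by 2.23 ± 0.71 on the log2 scale (adjusted p = 0.10), or 2.29 ± 0.43 with the library block (adjusted p = 0.00026). Over microglia the excess was 2.56 (adjusted p = 0.13), or 2.70 ± 0.67 with the block (adjusted p = 0.0031). Over choroid plexus cells, added after the data were seen, it was 2.90 ± 0.71 (adjusted p = 0.0053). So the difference between ECs and both phagocyte types was called with the block and separate adult libraries, and not without them. Which of these changes to the fit matters is not given here. For PVMs, 2.94% of all genes were called without and 6.57% with the block, for microglia 7.21% and 16.6%, and for choroid plexus cells 11.7%. Against mural (1.25, adjusted p = 0.89) and astrocyte-like cells (2.30, adjusted p = 0.95), with few Ch25h UMIs, no difference was called.

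The promoter sequences of these genes, from RefSeq (GRCm38.p6), are shown because Ch25h and the sterol genes Hmgcs1, Insig1 and Cyp51 moved in opposite directions in EAE ECs, as described next. Entries were matched for 6 of the 8 genes, Sqle and Fdps being the others. The window of 300 bases ran from 250 before to 50 after the RefSeq start, and the printed stretch ends before the outermost annotated start. Capitals mark matches, on either strand, to 4 motifs that do not contain one another: the sterol regulatory element TCACNCCAC, bound by SREBPs, the CCAAT box, bound by NF-Y, the cyclic AMP response element TGACGTCA, and the AP-1 element TGANTCA.
Ch25h, chr19:34475165-34475398, minus strand: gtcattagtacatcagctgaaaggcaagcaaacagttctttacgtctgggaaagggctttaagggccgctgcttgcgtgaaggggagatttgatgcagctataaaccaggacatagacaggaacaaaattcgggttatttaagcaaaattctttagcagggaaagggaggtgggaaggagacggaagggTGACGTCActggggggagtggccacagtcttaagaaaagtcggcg
Hmgcs1, chr13:119690101-119690350, plus strand: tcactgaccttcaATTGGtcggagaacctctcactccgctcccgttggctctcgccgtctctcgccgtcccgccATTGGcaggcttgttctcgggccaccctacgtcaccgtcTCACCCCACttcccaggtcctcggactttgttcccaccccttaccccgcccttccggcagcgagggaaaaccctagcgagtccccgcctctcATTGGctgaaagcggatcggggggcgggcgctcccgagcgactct
Insig1, chr5:28071162-28071362, plus strand: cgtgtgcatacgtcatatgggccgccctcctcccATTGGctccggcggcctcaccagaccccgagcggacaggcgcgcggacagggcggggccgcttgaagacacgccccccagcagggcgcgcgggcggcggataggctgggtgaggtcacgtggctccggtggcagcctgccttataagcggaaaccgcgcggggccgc
Cyp51, chr5:4104747-4104947, minus strand: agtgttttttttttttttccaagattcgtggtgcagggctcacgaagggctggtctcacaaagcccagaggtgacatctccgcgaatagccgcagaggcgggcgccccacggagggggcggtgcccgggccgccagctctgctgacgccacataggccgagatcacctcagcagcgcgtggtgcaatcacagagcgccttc
The Ch25h window held 1 cyclic AMP response element, at position -61 from the RefSeq start, a motif found in 1.79% of all 32851 promoter windows. Hmgcs1 held 1 sterol regulatory element at position -137, a motif found in 1.24% of windows, and 4 CCAAT boxes, of which 1 lies outside the printed stretch. CCAAT boxes are common, in 37.4% of windows, and were also found in Insig1 (1), Idi1 (2), Srebf2 (1) and Cyp51 (1, outside the printed stretch). The AP-1 element, in 7.81% of windows, matched none of the 6. A match describes these letters only.

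In ECs, 3 of the 7 sterol genes were lower in EAE: Hmgcs1, Cyp51 and Insig1. Hmgcs1 encodes HMG-CoA synthase, an early enzyme of the mevalonate pathway. Its level was 33.0 and 32.9 CPM in EAE and 61.3, 43.4 and 47.0 CPM in adults (log2 fold change -0.48 ± 0.13, adjusted p = 0.021, edgeR). Cyp51 encodes lanosterol 14-alpha-demethylase, which acts on the first sterols after squalene. It stood at 14.2 and 13.7 CPM in EAE and at 28.2, 19.6 and 21.03 CPM in adults (-0.56 ± 0.15, adjusted p = 0.017). Insig1, the brake on SREBP processing and itself an SREBP target, stood at 40.1 and 41.4 CPM in EAE and at 74.4, 66.2 and 66.9 CPM in adults (-0.60 ± 0.17, adjusted p = 0.022). For all 3, both EAE libraries lay below all 3 adults. Adult 1 was the highest library in each case, and the calls were lost without it: Hmgcs1 -0.28 (adjusted p = 0.12), Cyp51 -0.36 (adjusted p = 0.074) and Insig1 -0.53 (adjusted p = 0.079). Leaving out either EAE library also ended all 3 calls.

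The other sterol genes were not called in EAE ECs. Sqle encodes squalene epoxidase, a rate-limiting step after squalene. It was at 9.18 and 8.92 CPM in EAE against 21.6, 13.1 and 10.5 CPM in adults (-0.59 ± 0.23, adjusted p = 0.074), with Adult 3 close to the EAE pair. Without Adult 2 and 3 it was -1.05 (adjusted p = 0.0017), but that is against the single library Adult 1, with the spread taken from the other groups. Fdps, farnesyl diphosphate synthase, stood at 50.9 and 52.0 CPM against 76.0, 57.5 and 56.5 CPM (-0.16 ± 0.13, adjusted p = 0.39). Srebf2 itself stood at 33.7 and 36.9 CPM against 46.5, 34.1 and 38.4 CPM (-0.01 ± 0.14, adjusted p = 0.96). Idi1, isopentenyl diphosphate isomerase, was near the limit of counting, at 0.552 to 1.64 CPM in these 5 libraries (-0.56 ± 0.61, adjusted p = 0.53).

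Choroid plexus markers in ECs moved with this comparison, since their sum was 20134 to 50263 CPM in adults and 7548 to 7555 CPM in EAE, with none of the 6 markers at 0. The part that this RNA could bring was subtracted, a step added after the data were seen. Hmgcs1 then stood at 43.0, 36.8 and 40.3 CPM in adults and 29.3 and 28.9 CPM in EAE. Insig1 stood at 61.9, 62.1 and 62.0 CPM against 38.4 and 39.7 CPM, and Cyp51 at 24.7, 18.3 and 19.8 CPM against 13.3 and 12.7 CPM. The part of this RNA in the called changes was not tested.

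**Figure D2:**
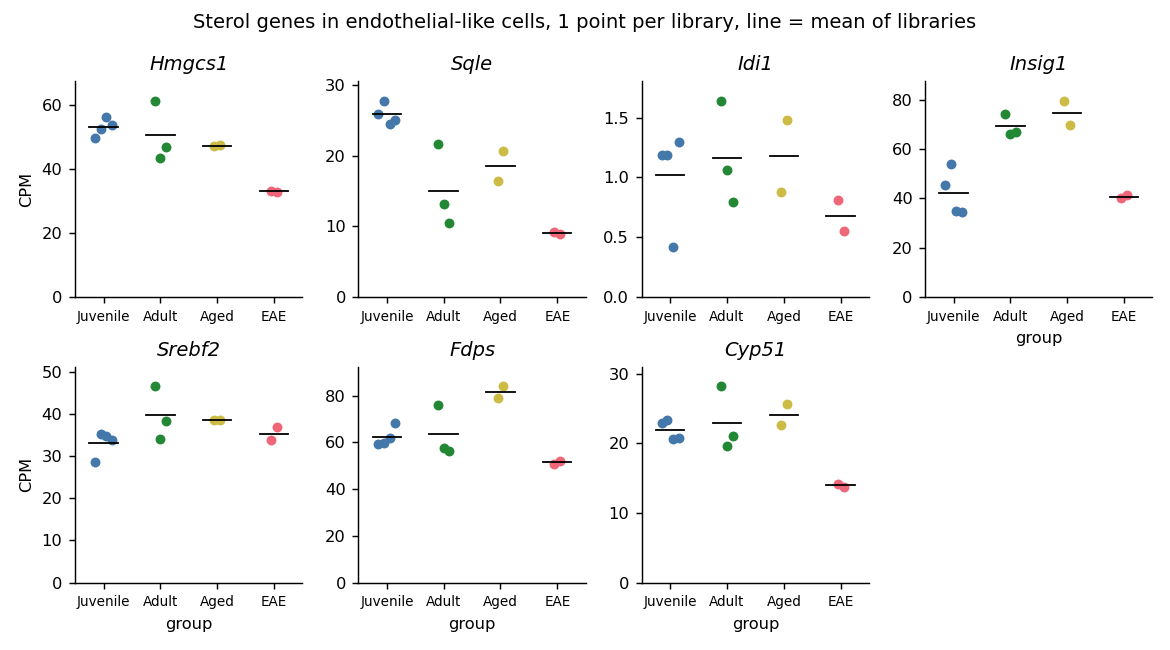
Level (CPM) of the 7 sterol genes in ECs, 1 point per library by group, with a line at the mean over libraries. Hmgcs1, Cyp51 and Insig1 are lower in both EAE libraries than in the adults, Sqle is highest in juveniles, and Srebf2 overlaps between groups.

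The wider pathway was read from 3 lists chosen for this purpose. Of 21 sterol synthesis enzymes tested in EAE ECs, 4 were lower and 1 was higher, beside the 28.1% called of all genes, so nothing is read from the count. Their median log2 fold change was -0.28, against 0.01 over all genes. Of the lower ones 2 are the members Cyp51 and Hmgcs1, and the others were Dhcr7 (-1.43 ± 0.14, adjusted p = 1.7e-05), the last enzyme on the route through 7-dehydrocholesterol, and Nsdhl (-0.72 ± 0.18), which removes methyl groups after the CYP51 step. Hsd17b7, which acts with Nsdhl, was higher (0.68 ± 0.24). Enzymes next to each other in the route thus moved in both directions. Of 12 genes of SREBP control and cholesterol uptake, 2 were higher, Npc1 (0.66 ± 0.17) and Npc2 (0.34 ± 0.11), which move cholesterol out of lysosomes, and 2 were lower, Insig1 and Stard4 (-0.37 ± 0.13), a sterol carrier. Of 12 oxysterol and LXR genes, Ch25h and the LXR genes Nr1h2 (0.60 ± 0.09) and Nr1h3 (0.75 ± 0.26) were higher, and the exporter Abcg1 was lower (-0.72 ± 0.14).

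In PVMs all 6 sterol genes tested were lower in EAE. Of 7 members tested, 6 were lower and Ch25h was higher, where 17.7% of all genes were called. Hmgcs1 was at 23.7 and 17.8 CPM in EAE against 61.6, 41.9 and 42.6 CPM in adults (-1.15 ± 0.28, adjusted p = 0.0041, edgeR). Sqle was at 7.58 and 8.42 CPM against 42.2, 22.5 and 15.8 CPM (-1.72 ± 0.43, adjusted p = 0.0059). Cyp51 was at 8.52 and 5.61 CPM against 28.5, 22.5 and 22.1 CPM (-1.66 ± 0.40, adjusted p = 0.0045). These 3 enzymes fell without overlap between the groups. Fdps was at 23.7 and 11.2 CPM against 62.8, 49.9 and 41.0 CPM (-1.46 ± 0.30, adjusted p = 0.0011). Of the control genes, Insig1 was at 31.3 and 18.7 CPM against 76.5, 74.1 and 94.6 CPM (-1.54 ± 0.26, adjusted p = 0.00012). Srebf2 was at 12.3 and 10.3 CPM against 32.0, 24.2 and 39.4 CPM (-1.34 ± 0.39, adjusted p = 0.015). Both control genes fell as well. For each of the 6 genes the EAE pair lay below every adult library, which describes these values only. PVMs numbered 221 and 236 in EAE, and the EAE levels of Sqle, Cyp51 and Srebf2 rest on few UMIs each. Without Adult 1, Hmgcs1 (-0.86, adjusted p = 0.058) and Sqle (-1.08, adjusted p = 0.14) lost the call. Without EAE 2, so did Hmgcs1 (-0.96, adjusted p = 0.097), Fdps (-1.02, adjusted p = 0.070), Cyp51 (-1.39, adjusted p = 0.091) and Srebf2 (-1.21, adjusted p = 0.14), and without EAE 1, Sqle (-1.62, adjusted p = 0.066) and Srebf2 (-1.45, adjusted p = 0.079). DESeq2 called 4 of the 7 members and did not call Cyp51 (-1.69, adjusted p = 0.052), Srebf2 (-1.34, adjusted p = 0.11) or Ch25h. The Insig1 call was kept in each of 12 alternatives.

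Of 16 enzymes of the route tested in PVMs, 7 were lower and none was higher, beside the 17.7% called of all genes. The 7 include the members Hmgcs1, Sqle, Fdps and Cyp51. For all 16 the median log2 fold change was -0.79, against -0.02 over all genes. Among the others were Fdft1 (-1.85 ± 0.63), squalene synthase, and Sc4mol, also known as Msmo1 (-1.43), a sterol methyl oxidase. Abcg1 rose (1.35 ± 0.17), as did Npc1 (0.84 ± 0.29) and Npc2 (1.05 ± 0.13), whereas Gpr183 was lower (-2.25 ± 0.30). Markers of other cells moved in PVMs at the same time. The summed level of 8 microglial markers was 3213 to 3465 CPM in adults and 901 to 905 CPM in EAE, that of 6 choroid plexus markers 21957 to 54514 CPM and 6134 to 10965 CPM, and that of 7 monocyte markers 67.3 to 77.3 CPM and 299 to 331 CPM. No more than 3 of the monocyte markers were at 0 in any adult library. Of 14 immediate early genes, which respond within minutes to stimuli and to tissue handling, 7 were lower in EAE PVMs and none was higher, with a median log2 fold change of -1.71. The part of these markers and genes in the PVM result was not tested.

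In microglia none of 7 members was called in EAE by edgeR, although 25.7% of all genes were, 3 were under an unadjusted p of 0.05 and DESeq2 called 1. Insig1 (-1.25, adjusted p = 0.12), Srebf2 (-0.85, adjusted p = 0.091) and Hmgcs1 (-0.61, adjusted p = 0.12) all had negative values. Of 18 enzymes, Pmvk was higher (0.90 ± 0.24) and Sc4mol lower (-0.61). The microglial markers themselves summed to 14043 to 14990 CPM in adults and 5287 to 5339 CPM in EAE. Monocyte markers in microglia summed to 43.7 to 56.3 CPM in adults and 285 to 315 CPM in EAE. Mitotic markers summed to 5.63 to 6.87 CPM and 96.1 to 97.8 CPM, and choroid plexus markers to 22356 to 56630 CPM and 7978 to 10581 CPM. The part of these markers in the microglial results was not tested. Apoe (0.97 ± 0.21), the lipid carrier of the brain, Npc2 (1.09 ± 0.11) and Abcg1 (0.48 ± 0.13) were higher, and Gpr183 (-0.41 ± 0.12) and Mylip (-0.53 ± 0.12), an LXR-induced ubiquitin ligase, were lower.

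In choroid plexus cells 3 of 8 members tested were higher in EAE and none was lower, a share near the 33.3% called of all genes. EC markers in these cells summed to 1725 to 1849.9 CPM in adults and 561 to 698 CPM in EAE, 7 monocyte markers to 45.1 to 51.4 CPM and 114 to 134 CPM, and 6 neutrophil markers to 49.7 to 64.6 CPM and 166 to 184 CPM. Their part in the result was not tested. Hmgcs1 rose to 155 and 161 CPM from 118, 110 and 111 CPM (0.38 ± 0.11, adjusted p = 0.0095, edgeR). Cyp51 rose to 37.1 and 39.3 CPM from 22.7, 22.5 and 20.5 CPM (0.70 ± 0.21, adjusted p = 0.021). Sqle rose to 63.8 and 62.4 CPM from 47.0, 40.7 and 44.1 CPM (0.41 ± 0.12, adjusted p = 0.014). None of these groups overlapped. The Cyp51 call was lost without Adult 1 (0.69, adjusted p = 0.072), without Adult 2 and 3 (0.71, adjusted p = 0.072) and without either EAE library, the Sqle call without EAE 1 (0.40, adjusted p = 0.094) or EAE 2 (0.43, adjusted p = 0.072) and by DESeq2 (0.41, adjusted p = 0.064), and the Hmgcs1 call without EAE 2 (0.36, adjusted p = 0.089). Of 21 enzymes, 6 were higher, among them Hsd17b7 (1.09 ± 0.24), Nsdhl (0.65 ± 0.15) and Sc4mol (0.43), and Ebp was lower (-0.45 ± 0.16).

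The difference between ECs and choroid plexus cells was fitted as an interaction without the library block. The fit was added, and the 3 genes were picked, after their opposite signs were seen, so the values are a description, where 11.7% of all genes were called. The EAE effect in ECs was lower than in choroid plexus cells by -0.94 ± 0.25 for Hmgcs1 (adjusted p = 0.0075), -1.04 ± 0.32 for Sqle (adjusted p = 0.022) and -1.33 ± 0.29 for Cyp51 (adjusted p = 0.0010). Between ECs and PVMs, Fdps differed by 1.18 ± 0.34 (adjusted p = 0.039), or 1.21 with the library block (adjusted p = 0.0053), with Fdps lower in PVMs and not called in ECs. This difference lost the call in 5 of 17 alternatives, each of them with 1 unit left out, and was smallest without EAE 2 (0.78, adjusted p = 0.60). Srebf2 differed by 1.22 (adjusted p = 0.10), or 1.26 with the block (adjusted p = 0.034).

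Among other types, monocyte- and dendritic cell-like cells had 2 of 3 members lower in EAE, where 23.5% of genes were called. Fdps was at 32.4 and 30.0 CPM against 76.9, 61.0 and 72.7 CPM (-1.15, adjusted p = 0.0019, edgeR), and Srebf2 at 28.4 and 25.1 CPM against 53.8, 72.5 and 42.8 CPM (-1.12, adjusted p = 0.015). Neither call held without Adult 2 and 3 (Fdps -1.31, adjusted p = 0.14, and Srebf2 -1.02, adjusted p = 0.45) or without either EAE library, and DESeq2 did not call Srebf2 (-1.12, adjusted p = 0.13). This class held 19, 47 and 40 adult cells and 1086 and 989 EAE cells, and its makeup moved with the groups. Monocyte markers summed to 1690.01 to 2192 CPM in adults and 8153 to 8587 CPM in EAE, dendritic cell markers to 631 to 1616 CPM and 201 to 229 CPM, neutrophil markers to 55.6 to 76.9 CPM and 924 to 1099 CPM, and choroid plexus markers to 15236 to 45384 CPM and 5264 to 6156 CPM. Their part in the Fdps and Srebf2 results was not tested. In mural cells 0 of 6 members were called by edgeR (4.52% of all genes), with 0 under an unadjusted p of 0.05 and 0 by DESeq2. In astrocyte-like cells 0 of 6 were called (2.19% of all genes), with 1 under an unadjusted p of 0.05 and 0 by DESeq2.

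**Figure D3:**
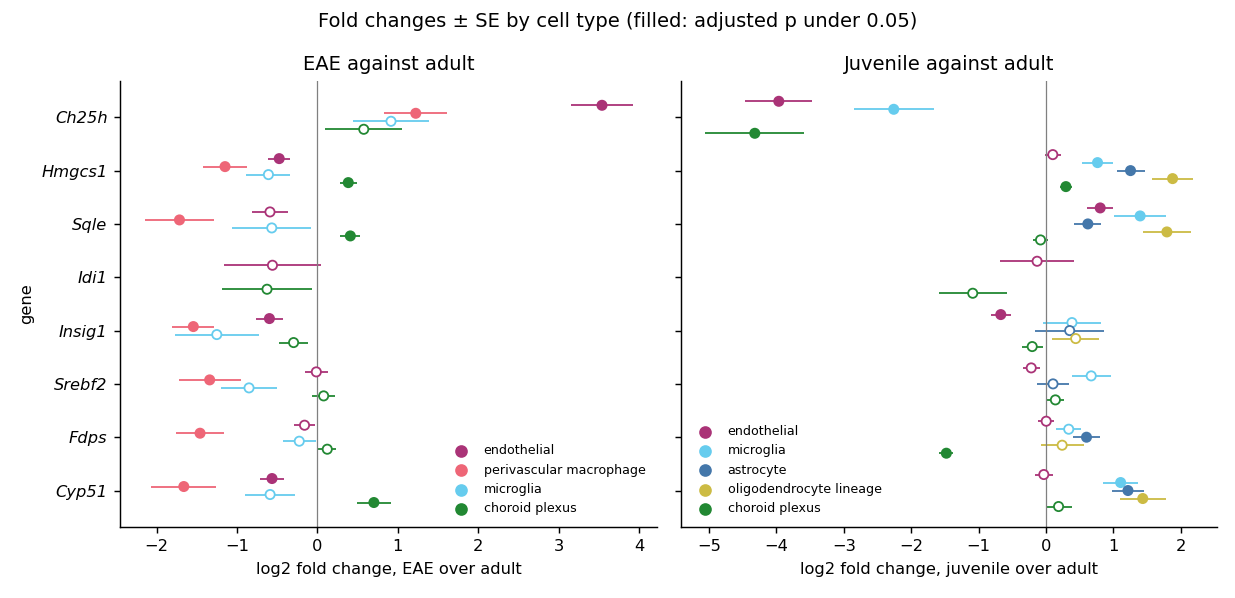
Log2 fold change ± standard error of the 8 genes, for EAE against adult (ECs, PVMs, microglia, choroid plexus cells) and juvenile against adult (ECs, microglia, astrocyte-like, oligodendrocyte-lineage and choroid plexus cells). Filled points are called (adjusted p under 0.05). In EAE the PVM points for sterol genes lie below 0 and the choroid plexus points for Hmgcs1, Sqle and Cyp51 above it.

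Juvenile and adult libraries were compared within each cell type, and differences between cell types were not tested here. In juvenile ECs, 3 of 8 members were called, 1 higher and 2 lower, a share below the 43.8% called of all genes. Sqle was at 25.9, 27.8, 24.5 and 25.1 CPM, above all 3 adults (0.81 ± 0.20, adjusted p = 0.0058, edgeR). Insig1 was at 45.5, 54.1, 34.997 and 34.3 CPM, below all 3 adults (-0.67 ± 0.15, adjusted p = 0.0034). Markers of other cells moved with this comparison too. The 6 choroid plexus markers in ECs summed to 20134 to 50263 CPM in adults and 3744 to 8649 CPM in juveniles, and 4 mitotic markers to 2.25 to 5.20 CPM and 109 to 192 CPM, and 8 of 14 immediate early genes were lower in juveniles. Their part in the juvenile EC results was not tested. The other called member was Ch25h, given above. Without Adult 2 and 3 the Sqle difference was 0.34 (adjusted p = 0.13). Hmgcs1 was at 49.6, 52.5, 56.3 and 53.7 CPM and Cyp51 at 20.6 to 23.4 CPM, both within the adult range. Around them, Abca1 (2.22 ± 0.11) and Abcg1 (1.38 ± 0.13), the LXR-driven exporters, were higher in juvenile ECs, and Nr1h3 (-1.66 ± 0.26) and Apoe (-0.92 ± 0.15) were lower. Mvd (1.16 ± 0.16) and Mvk (0.86 ± 0.15), enzymes of the mevalonate steps, were higher, and Lss (-1.16 ± 0.29), lanosterol synthase, was lower. Of 21 enzymes 6 were higher and 2 lower, and their median (-0.02) was near that of all genes (-0.04).

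Astrocyte-like cells had more RNA of some of the sterol genes in juveniles. There 4 of 6 members were higher and none lower, where 12% of genes were called. Hmgcs1 was at 924, 919, 859 and 731 CPM in juveniles and at 275, 173 and 575 CPM in adults (1.26 ± 0.21, adjusted p = 0.00014, edgeR), from 115, 23 and 22 adult cells. Cyp51 was at 224, 260, 192 and 197 CPM against 64.9, 145 and 88.4 CPM (1.22 ± 0.24, adjusted p = 0.00097), and this call was lost without Adult 1 (0.79, adjusted p = 0.26). Sqle (0.62 ± 0.20, adjusted p = 0.038) and Fdps (0.60 ± 0.20, adjusted p = 0.049) were also higher. Sqle lost the call with any 1 of the juvenile or adult units left out (0.55 to 0.84), and Fdps without Adult 1 (0.45, adjusted p = 0.50), Juvenile 1 or Juvenile 2. DESeq2 called neither Sqle (0.64, adjusted p = 0.060) nor Fdps (0.62, adjusted p = 0.13). Without Juvenile 3 and 4 together Sqle was not called (0.65, adjusted p = 0.058) and Insig1 was (0.88, adjusted p = 0.0019). Of 18 enzymes 9 were higher and none lower, with a median of 0.64 against -0.03 over all genes, and Lss (2.17 ± 0.69), Acat2 (1.34 ± 0.29) and Tm7sf2 (1.18 ± 0.32) led the rest.

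Oligodendrocyte-lineage cells, few after myelin removal, also had more RNA of some of the sterol genes in juveniles. Only Juvenile 1 and 2 held enough of them, 18 and 28 cells. Hmgcs1 was at 945 and 1632 CPM there and at 246, 400 and 353 CPM in adults (1.88 ± 0.30, adjusted p = 5.9e-05, edgeR). Sqle was at 331 and 314 CPM against 76.9, 103 and 68.2 CPM (1.80 ± 0.35, adjusted p = 0.00043). Cyp51 was at 295 and 314 CPM against 82.0, 130 and 91.9 CPM (1.44 ± 0.34, adjusted p = 0.0023), a call lost with no filter on low counts (adjusted p = 0.057). Thus 3 of 5 members were higher, without overlap, where 39.3% of genes were called. Of 10 enzymes 6 were higher and none lower, among them Acat2 (2.89 ± 0.38), while Apoe (-2.82 ± 0.34) and Abcg1 (-2.83 ± 0.45) were lower. Few cells stand behind each of these values, and the class may hold different maturation stages at the 2 ages, which was not tested.

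In juvenile microglia, 4 of 7 members were called, 3 higher and Ch25h lower, where 25% of genes were called. The 4 juvenile libraries fell into 2 pairs, which differed in 27.5% to 29.3% of genes in ECs. Hmgcs1 was at 72.3 and 70.5 CPM in Juvenile 1 and 2 and at 45.4 and 46.4 CPM in Juvenile 3 and 4 (0.77 ± 0.23 against adult, adjusted p = 0.026, edgeR). Sqle (1.40 ± 0.39, adjusted p = 0.017) and Cyp51 (1.11 ± 0.25, adjusted p = 0.0054) were higher as well, and none of the 3 was called without Adult 2 and 3. Hmgcs1 also lost the call without Juvenile 1 (0.63, adjusted p = 0.059) or Juvenile 2 (0.66, adjusted p = 0.053). Ch25h was at 0.727 to 2.32 CPM (-2.26 ± 0.59, adjusted p = 0.012), a call lost without Adult 2 and 3 (-2.08, adjusted p = 0.089) or without Adult 1 (-2.40). The 8 EC markers in microglia summed to 1376 to 1650.5 CPM in adults and 289.7 to 333 CPM in juveniles. With the part that EC RNA could bring subtracted, Ch25h stood at 4.84, 4.71 and 5.27 CPM in adults and 0.704 to 2.29 CPM in juveniles. At 1500 UMIs per cell only 3 adult and 8 juvenile microglia held a Ch25h UMI, so no expression is read from this call. Mitotic markers in microglia summed to 5.63 to 6.87 CPM in adults and 231 to 317 CPM in juveniles, and 8 PVM markers to 57.7 to 169 CPM and 232 to 374 CPM, and 8 of 14 immediate early genes were lower and 1 higher in juveniles. Their part in the juvenile microglial results was not tested. Without Juvenile 3 and 4, Insig1 (0.79, adjusted p = 0.0031) and Srebf2 (0.97, adjusted p = 0.0018) were called as well. Of the wider lists, Stard4 (1.77 ± 0.46) and Srebf1 (0.82 ± 0.18), both SREBP targets, were among the higher genes.

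In juvenile choroid plexus cells 13 of 21 enzymes were lower and 2 higher, with a median of -0.61, in a comparison that called 57.1% of all genes, so nothing is read from the count. Of 8 members 1 was higher and 2 were lower. Fdps was at 29.2, 35.4, 32.0 and 31.7 CPM against 78.0, 80.5 and 77.4 CPM in adults (-1.48 ± 0.10, adjusted p = 3.2e-10, edgeR), with no overlap and called in each of 15 alternatives. Hmgcs1 was slightly higher (0.30 ± 0.09, adjusted p = 0.011), but not called with no filter on low counts (0.26, adjusted p = 0.078) or without Juvenile 3 and 4 (0.26, adjusted p = 0.085), where Insig1 was called lower (-0.50, adjusted p = 0.0099). Ch25h was lower (-4.32 ± 0.74, adjusted p = 4.7e-05), with 0, 1, 1 and 0 UMIs in juveniles against 15, 15 and 18 in adults. Of the adult levels of 1.53, 2.99 and 3.39 CPM, EC RNA could bring 0.626, 1.94 and 2.36 CPM by the reckoning used for PVMs, and the EC markers in choroid plexus cells summed to 1725 to 1849.9 CPM in adults and 579 to 676 CPM in juveniles. No expression of Ch25h by choroid plexus cells is read from this call. In juvenile PVMs 2 of 7 members were called, both lower, where 10.4% of genes were called. Beside Ch25h this was Insig1 (-0.73 ± 0.22, adjusted p = 0.034), a call lost with any 1 juvenile or adult unit but Juvenile 1 left out (-0.64 to -0.78) and by DESeq2 (-0.73, adjusted p = 0.19). Without Juvenile 3 and 4 neither Ch25h (-2.41, adjusted p = 0.063) nor Insig1 (-0.54, adjusted p = 0.22) was called in PVMs. In mural cells 1 of 6 was called, Srebf2 (-1.04, adjusted p = 0.0032), where 25.8% of genes were called. In fibroblast-like cells 1 of 5 was called, Fdps, at 59.6, 67.9, 55.5 and 83.1 CPM in juveniles and 147, 289 and 121 CPM in adults (-1.54 ± 0.37, adjusted p = 0.045), where 2.98% of genes were called. All 5 members tested there were under an unadjusted p of 0.05, and DESeq2 called 3, Fdps, Sqle (-1.39, adjusted p = 0.025) and Cyp51 (-1.52, adjusted p = 0.028), all lower. In monocyte- and dendritic cell-like cells 1 of 3 was called, again Fdps, from 1 to 4 UMIs per juvenile library (-1.78 ± 0.50, adjusted p = 0.047), where 2.63% of genes were called. These Fdps calls were lost in 6 and 8 of 15 alternatives.

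Ageing left the 8 genes without a called change by edgeR. In aged ECs none of 8 was called, where 5.72% of genes were, 1 was under an unadjusted p of 0.05 and DESeq2 called 0. Hmgcs1 was at 47.1 and 47.4 CPM, Insig1 at 79.6 and 69.7 CPM and Cyp51 at 22.6 and 25.6 CPM, all within or beside the adult range. Fdps was at 79.0 and 84.0 CPM, above the 3 adults (0.32, adjusted p = 0.17), and Sqle at 16.4 and 20.6 CPM. Without Adult 1 both were called, Fdps at 0.52 (adjusted p = 0.027) and Sqle at 0.65 (adjusted p = 0.034), so these depend on that library. None of 7 members was called in PVMs (2.06% of genes), none of 7 in microglia (2.04%) and none of 8 in choroid plexus cells (1.54%), with none under an unadjusted p of 0.05 and none by DESeq2 in any of the 3, which gave an adjusted p for 3 members in PVMs. Of the wider lists in aged ECs, the exporters Abca1 (-1.47 ± 0.13) and Abcg1 (-1.21 ± 0.14) were lower and Hsd17b7 (1.07 ± 0.23) and Npc1 (0.76 ± 0.17) higher. Abcg1 (-0.97 ± 0.21) and Abca1 (-0.61 ± 0.16) were lower in aged PVMs too. Markers of other cells moved in aged ECs. Neuron markers summed to 92.2 to 97.2 CPM in adults and 319 to 342 CPM in aged ECs. Neutrophil markers summed to 34.2 to 41.9 CPM and 201 to 262 CPM, and choroid plexus markers to 20134 to 50263 CPM and 6794 to 8966 CPM. Their part in these results was not tested, and such markers are not given here for aged PVMs.

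ECs of the EAE mice with and without a Ch25h UMI were then compared within each library at 1500 UMIs per cell, to ask whether cells with the gene also differ in the sterol genes. There were 589 and 587 cells with and 2576 and 2479 cells without. Before thinning, the median depth was 3339 and 3369 UMIs with and 2439.5 and 2509 UMIs without, so the equal depth matters. Ch25h was left out of the totals. Since a cell without a UMI may still make the gene, the contrast is between cells with more and less of it.

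None of the 6 sterol genes tested differed between the classes by edgeR with library as a block, where 7.49% of genes were called (742 of 9911, of which 497 higher). None was under an unadjusted p of 0.05, and DESeq2 gave no adjusted p for them. Hmgcs1 was at 31.7 CPM with and 37.5 CPM without in EAE 1, and at 31.8 and 36.3 CPM in EAE 2 (-0.16 ± 0.20, adjusted p = 0.78). Insig1 was at 36.3 and 46.3 CPM, and at 40.9 and 38.2 CPM (-0.08 ± 0.18, adjusted p = 0.90). Sqle was at 7.93 and 10.1 CPM, and at 12.5 and 9.14 CPM (0.14 ± 0.40, adjusted p = 0.92). The last 2 genes pointed in opposite directions in the 2 libraries. Fdps was lower in the cells with Ch25h in both libraries, at 44.2 and 51.8 CPM and at 45.5 and 61.9 CPM (-0.28 ± 0.16, adjusted p = 0.42). Cyp51 was higher in both, at 22.7 and 14.0 CPM and at 15.9 and 13.2 CPM (0.56 ± 0.31, adjusted p = 0.34), from 20 and 14 UMIs. Srebf2 was at 36.3 and 28.0 CPM and at 36.4 and 33.9 CPM (0.29 ± 0.21, adjusted p = 0.53). Idi1 was under the filter, with at most 1.81 CPM.

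These calls depended on the thinning and on the cut between classes. Without thinning, Fdps (-0.47, adjusted p = 4.0e-06), Cyp51 (0.48, adjusted p = 0.031) and Srebf2 (0.36, adjusted p = 0.0054) were called. With at least 2 Ch25h UMIs against none, Fdps was called (-0.53, adjusted p = 0.049, edgeR). The Ch25h UMIs for that cut were counted before thinning, so deeper cells can fall more often into the class with at least 2. With another random seed for the thinning Srebf2 was called (0.57, adjusted p = 0.041, edgeR). With the EC subclusters as strata, Fdps was -0.08 and Cyp51 0.42, neither called.

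**Figure D4:**
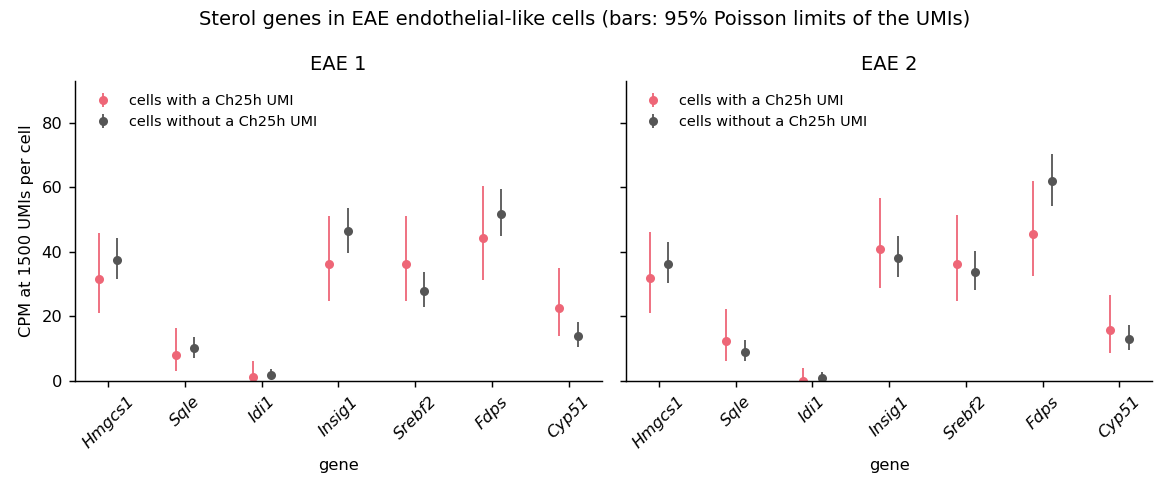
Level (CPM) of the 7 sterol genes in ECs with and without a Ch25h UMI at 1500 UMIs per cell, in EAE 1 and EAE 2, with 95% Poisson limits that cover counting error only. The limits of the classes overlap for each gene in both libraries, and Fdps is lower with Ch25h in both libraries.

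Other genes did separate the classes in the main fit. With EC subclusters as strata 147 of 6726 genes were called, and by DESeq2 171 of 9911. The genes named below are not given for those fits. All 14 immediate early genes of the list were higher in cells with Ch25h, among them Egr1 (1.24 ± 0.11, 163 against 69.5 CPM in EAE 1 and 164 against 68.3 CPM in EAE 2), Zfp36 (1.03 ± 0.06), Junb (0.69 ± 0.03) and Fos (0.35 ± 0.04). Of 12 endothelial activation genes tested 10 were higher, including the adhesion molecules Vcam1 (1.91 ± 0.10), Icam1 (1.96 ± 0.13) and Sele (2.63 ± 0.35). Of 14 interferon-stimulated genes 3 were higher, Irf1 (0.79 ± 0.10), Gbp2 (0.46 ± 0.08) and Irgm1 (0.33 ± 0.09), and 1, Rsad2 (-0.40 ± 0.13), was lower. By contrast, edgeR called 0 of 18 sterol enzymes (median 0.17, 3 under an unadjusted p of 0.05) and 0 of 12 SREBP genes (0 under it). Of 9 oxysterol and LXR genes, Apoe alone was called, at -0.53 ± 0.03. By size among genes of at least 50 CPM, the chemokine-binding venular receptor Darc, now Ackr1 (2.59 ± 0.11), Serpina3n (2.22 ± 0.12), Cxcl1 (2.03 ± 0.11), Icam1 and Lrg1 (1.95 ± 0.07) led the higher genes. Islr2 (-2.22 ± 0.24), the Notch target Hey1 (-1.18 ± 0.14), Stmn2 (-1.08 ± 0.15), Ptn (-0.94 ± 0.17) and Sgpp2 (-0.93 ± 0.20) led the lower ones. Darc is known from venules, Icam1, Vcam1 and Sele from inflamed endothelium, and Hey1 from arteries.

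In the aged ECs the same contrast rested on 76 cells with Ch25h in each library. None of 6 members was called by edgeR, where 0.661% of genes were, and none was under an unadjusted p of 0.05. DESeq2 gave an adjusted p for 3 and called 0. Without thinning Insig1 was called (-0.65, adjusted p = 0.0080, edgeR). With at least 2 Ch25h UMIs against none, counted before thinning, Insig1 was -3.60 (adjusted p = 0.24). As in EAE, immediate early genes (10 of 14) and endothelial activation genes (8 of 11) were called higher. Insig1 was at 43.9 CPM with and 79.0 CPM without in Aged 1, and at 52.7 and 70.3 CPM in Aged 2. Sqle had 0 and 1 UMIs in the cells with Ch25h. Adult 2 and Adult 3 had 43 and 46 such cells, with 0 to 4 UMIs per sterol gene, and were not tested. For example, Hmgcs1 had 1 UMI in the Adult 2 cells with Ch25h, 15.5 CPM (exact 95% Poisson interval 0.393–86.5), against 48.9 CPM without.

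Within ECs, Ch25h was highest in a venous-like subcluster in adult and in aged mice and was found across the subclusters in EAE. ECs were subclustered by group, leaving out the same genes as in the clustering of all cells, and the values are a description with no test. The adult venous-like subcluster held 121 cells and was led by Lrg1, Ch25h, Ptgs2 and Darc. The venous markers used include Icam1, Vcam1 and Vwf, which are also in the list of endothelial activation genes. In this subcluster Ch25h was at 372 and 550 CPM in Adult 2 and 3, and 38.5% and 40.0% of its cells had a UMI. This subcluster made up 2.69% and 2.99% of ECs and held 46.5% and 52.2% of the cells with Ch25h. In the other adult subclusters with at least 20 cells in these libraries the level was 2.22 to 44.6 CPM. Among them was a subcluster led by Phlda1 and Adm, at 14.7 and 10.3 CPM. It scored best for the venous markers but too low to be named. In aged ECs the venous-like subcluster was again the highest, at 178 and 163 CPM. In EAE the venous-like subcluster was at 282 and 301 CPM, and a subcluster led by Tubb6 and Tnfsf8 was higher, at 459 and 461 CPM, with 34.1% and 33.9% of the cells with Ch25h. Venous markers were the second-best marker class of the Tubb6-led subcluster, with 5 of them raised there and 5 in the venous-like one. A subcluster led by Scgb3a1 and Bnip3 was at 328 and 290 CPM. Even the lowest, led by the capillary gene Car4, was at 45.8 and 48.3 CPM, and the 2 arterial-like ones were at 98.8 and 82.2 CPM and at 105 and 107 CPM. Adult 1 gave 820 of its 855 ECs to a subcluster of its own, led by hemoglobin genes, and is not compared here.

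Insig1 had another distribution. Each of the 4 groups held a subcluster led by Abhd2, Ttyh2 and Slc39a1, and in adult, aged and EAE mice Insig1 was highest there: 140 and 145 CPM in adults, 195 and 165 CPM in aged, 111 and 111 CPM in EAE and 80.8 and 78.9 CPM in Juvenile 3 and 4. Ch25h was low there in healthy adults, at 7.85 and 5.67 CPM. In the adult venous-like cells, where Ch25h was highest, Hmgcs1 was at 14.5 and 23.6 CPM, below the 36.7 to 57.6 CPM of the other adult subclusters with at least 20 cells. The venous-like cells held 413909 and 381895 UMIs of all genes, so these Hmgcs1 levels rest on few UMIs. Counting limits are not given, and a relation to Ch25h was not tested there. In aged venous-like cells Hmgcs1 was at 41.8 and 38.9 CPM, against 44.0 to 60.8 CPM in the other aged subclusters of that size. In EAE the venous-like cells had 19.7 and 27.5 CPM of Hmgcs1. The Tubb6-led subcluster, with the most Ch25h, had 38.9 and 35.4 CPM of Hmgcs1 and 34.7 and 36.1 CPM of Fdps, whereas the Car4-led one had 62.8 and 68.0 CPM of Fdps.

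**Figure D5:**
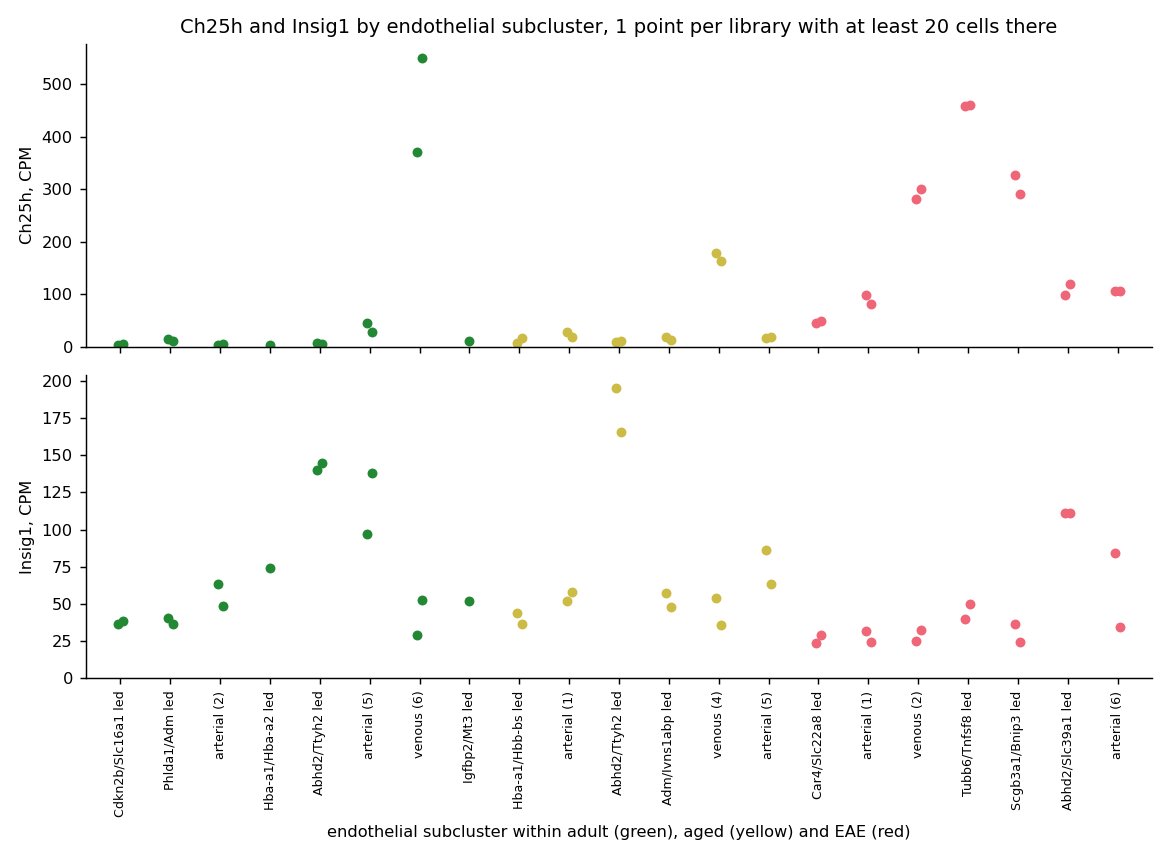
Level (CPM) of Ch25h and Insig1 by EC subcluster in the adult, aged and EAE groups, 1 point per library with at least 20 cells in the subcluster. Ch25h peaks in the venous-like subcluster of adult and of aged mice and in the Tubb6- and Tnfsf8-led cells in EAE, and Insig1 in the Abhd2-led cells.

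Across 123 combinations of library and cell type, which share libraries and depth, the genes whose levels ranked most like Ch25h among 15578 were Batf2 (Spearman's rho 0.612), Ier3 (0.608), Gm26236 (0.607), Sult1a1 (0.604) and Fmo2 (0.602). The 7 sterol genes lay between -0.298 (Srebf2) and 0.148 (Idi1), so none ranked near Ch25h over cell types.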

How the data were processed

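The authors handled barcodes with UMI-tools, aligned to mm10 with STAR and counted genes with featureCounts. The submitters' processing notes name bcl2fastq 2.19.1.403, UMI-tools 0.5.3, STAR 2.5.3a and featureCounts 1.6.1, while the paper's methods name later versions of the last 3, and which were used is not settled. The deposited values are raw UMI counts per gene and cell barcode, with no normalization. Starting from these counts, cells were filtered and clustered with Seurat 5.3.0 (2000 variable genes, 12 components, resolution 0.5). Scrublet, run through scanpy 1.11.5, called 818 doublets (1.62%), which were kept and left out in an alternative. UMIs were summed by library and cell type with at least 10 cells and tested with edgeR 4.0.16 (TMM, filterByExpr, quasi-likelihood test, 1 fit per cell type over all groups, Benjamini-Hochberg over all genes tested). The labels only number the replicates. Whether these are separate pools of mice or 1 pool split is not given in the sources used here, so p-values measure the spread between these libraries, which may be technical. The 8 genes and all lists were chosen with earlier results of these data known. The text names the 8 genes, called list genes by size of change (up to 10 per comparison), the 5 most like Ch25h, and the 5 largest called changes each way with at least 50 CPM between ECs with and without Ch25h. Ddx3y, Egr1, Zfp36, Junb, Fos, Vcam1, Sele, Irf1, Gbp2, Irgm1 and Rsad2 were named after their values were seen. Symbols follow the files (Darc, Sc4mol). Some genes of the lists are not reported here. The scripts were tested on simulated data. Alternatives were DESeq2 1.42.0, other size factors, no filter, no doublets, resolution 0.9, other thinning, the replicate number as a block and each library left out in turn.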

Additional observations from a re-analysis of the deposited data

Results flagged for a closer look

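Among the 47 sets of 4 juvenile libraries, 5 had a library far from its group by Dixon's test at the 95% level, and chance gives about 1 in 20. Ch25h was low in ECs of Juvenile 2 (0.991 CPM) and high in microglia of Juvenile 1 (2.32 CPM), from a handful of UMIs each. Idi1 was low in ECs of Juvenile 3 (0.42 CPM), also from few UMIs. Fdps in microglia of Juvenile 2 was 41.7 CPM, and Sqle in PVMs of Juvenile 1 was 23.1 CPM.

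Several EAE effects differed between cell types in at least some fits that tested the difference itself (edgeR, interaction term, log2 scale). Without the block 2.94% of all genes were called for PVMs and 7.21% for microglia. With it the shares were 6.57% and 16.6%, and for choroid plexus cells 11.7% were called without it. The Ch25h effect was larger in ECs than in microglia by 2.70 and than in PVMs by 2.29, both with the library as a block, and than in choroid plexus cells by 2.90. The fit with the block entered Adult 2 and 3 separately. Without the block and with these summed, Ch25h was called neither against microglia nor against PVMs. For Fdps the effect in ECs minus that in PVMs was 1.18, or 1.21 with the block, a call lost in 5 of 17 alternatives. For Srebf2 it was 1.26 with the block and was not called without it. Minus that in choroid plexus cells, the EC effect was -0.94 for Hmgcs1, -1.04 for Sqle and -1.33 for Cyp51. These 3 enzymes rose in choroid plexus cells and had negative log2 fold changes in ECs, and the comparison was added after that was seen.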

How the results depend on the processing

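Calls were counted over 6 types (ECs, microglia, PVMs, mural, astrocyte-like and choroid plexus cells), where EAE gave 14 of its 16 calls and the juvenile comparison 17 of its 22. The others lay in monocyte- and dendritic cell-like, oligodendrocyte-lineage and fibroblast-like cells. For EAE, leaving out 1 library at a time gave 3 to 14, the lowest without EAE 2, and with no filter on low counts there were 15. Ageing gave 0 calls, and 0 to 2 with 1 library left out, the 2 being Sqle and Fdps in ECs without Adult 1. The 17 juvenile calls stayed between 12 and 17 with 1 library left out and were 14 with the juvenile pairs summed, which left Sqle and Fdps in astrocyte-like cells and Insig1 in PVMs uncalled. Without Juvenile 3 and 4, left out after the data were seen, there were also 17, with 4 of the calls lost (Ch25h and Insig1 in PVMs, Sqle in astrocyte-like and Hmgcs1 in choroid plexus cells) and 4 others made (Insig1 in microglia, astrocyte-like and choroid plexus cells, Srebf2 in microglia). Between EAE ECs with and without Ch25h UMIs none of the members was called. Without thinning 3 were called, with at least 2 Ch25h UMIs (counted before thinning) against 0 it was 1, and with another thinning seed 1. The number of all genes called there went from 742 to 3064 without thinning, 1275 with at least 2 UMIs, 171 by DESeq2 and 147 with subclusters as strata. Of the differences of the EAE effect between cell types 1 was called, against 4 with the library block, 3 without the filter, 4 with choroid plexus cells and the block, and 0 to 1 with 1 library left out. The EAE minus adult share of ECs with Ch25h was 11.9 percentage points at 1000 UMIs and 23.8 without thinning. Of 39 called single values 10 were kept in each alternative and 29 lost the call in at least 1, and no called value changed sign. Uncalled values were compared with each alternative that also left them uncalled, and the sign changed in 126 of these 2012 comparisons. With the label's replicate numbers as a block and all 11 libraries entered separately, 16 EAE and 21 juvenile calls were made. This fit ended the call of Hmgcs1 in EAE ECs (-0.38, adjusted p = 0.059, edgeR) and added Hmgcs1 (-0.72, adjusted p = 0.011), Insig1 (-1.36, adjusted p = 0.00061) and Srebf2 (adjusted p = 0.0095) in EAE microglia. These numbers do not pair the libraries: deviations of same-numbered libraries correlated at -0.194 to 0.129 in ECs (13 pairs, median -0.0146). Limits: with 2 EAE libraries and 2 adult units no exact test can pass 0.05, and Adult 1 decides several calls. At 1500 UMIs per cell each of the 6 tested sterol genes rests on 7 to 40 UMIs per library in the EAE cells with Ch25h. In the aged cells with Ch25h each rests on 0 to 13 UMIs per library.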
